A study of Mus musculus with 47 samples.

Results

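Hand1 and Hand2 are a pair of basic helix-loop-helix (bHLH) transcription factor genes whose RNA was followed here through the cranial neural crest of mouse embryos. They were chosen by gene symbol, as the 2 rows of the gene count table named Hand1 and Hand2, out of 38215 genes, and are described across all 47 libraries and 16 groups. The study profiled sorted cranial neural crest cells, the migratory cells that build most of the facial skeleton, with unstranded RNA sequencing of total RNA. Wild-type cells were taken as progenitors at E8.5 (3 libraries), and on both later days, E10.5 and E11.5, from 4 places: the frontonasal process or FNP, the first pharyngeal arch split into its maxillary (Mx) and mandibular (Md) processes, and the second pharyngeal arch (PA2). Each of these 8 later groups had 3 libraries, except Mx at E10.5, which had 2. The other groups, with 3 libraries each, were FNP, Mx, Md and PA2 labelled Ezh2cKO at E10.5, Md labelled HoxA2OE at E10.5, and PA2 labelled Control and Hoxa2TempMut at E11.5. The series describes these genotypes as a conditional knockout of Ezh2, an overexpression of Hoxa2 and a temporal knockout of Hoxa2. The labels used here do not name the Cre driver, the promoter behind the overexpression, the time of deletion, the alleles that the Control embryos carried or the marker used for sorting. Replicates are numbered with no word on whether they come from different embryos or litters, so the p-values here reflect sample-to-sample spread that may be technical.

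In the pharyngeal arches, endothelin-1 from the arch epithelium signals through the receptor encoded by Ednra on crest cells and turns on Dlx5 and Dlx6, which in turn act upstream of Hand2. Hand2 and Hand1 mark the distal, or ventral, end of the arches, where Hand2 is known to hold back Dlx5, Dlx6 and bone formation, and BMP signals feed into both genes. Hand proteins bind DNA at E-box sequences as dimers with E proteins (encoded by Tcf3, Tcf4 and Tcf12) or with Twist proteins, and both genes are also needed in the heart, with Hand2 in limb buds and sympathetic neurons as well.

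Hand1 (ENSMUSG00000037335) lies on the minus strand of chromosome 11, from 57828705 to 57832818, and Hand2 (ENSMUSG00000038193) on the plus strand of chromosome 8, from 57320983 to 57324517, in the coordinates that the deposited table gives on GRCm38. Each gene has its coding sequence split over 2 exons, with 648 coding bases in Hand1 and 651 in Hand2 in the GENCODE annotation of that build. The proteins are most alike in the bHLH domain, and the stretch below, which covers most of the part that codes for it, is shown because reads of 50 bases have to be told apart there. It is given 5′ to 3′ on the coding strand, and capitals mark the bases that are identical in both genes.
Hand1 chr11:57831326-57831492 (minus strand): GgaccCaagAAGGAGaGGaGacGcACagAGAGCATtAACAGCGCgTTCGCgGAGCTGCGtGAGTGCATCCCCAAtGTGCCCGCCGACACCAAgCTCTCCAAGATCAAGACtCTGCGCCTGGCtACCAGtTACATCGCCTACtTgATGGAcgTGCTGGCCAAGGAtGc
Hand2 chr8:57322216-57322382 (plus strand): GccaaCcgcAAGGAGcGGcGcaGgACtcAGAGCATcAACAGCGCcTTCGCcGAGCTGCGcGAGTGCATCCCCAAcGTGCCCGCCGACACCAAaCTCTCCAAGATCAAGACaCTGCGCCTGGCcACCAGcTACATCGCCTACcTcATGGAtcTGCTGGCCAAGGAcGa
Of the 167 bases, 138 (82.6%) were identical. In the 1 transcript of each gene that was compared, the longest shared run was 17 bases, as in GTGCCCGCCGACACCAA. No stretch of 50 bases was shared, so a full-length read without errors fits only 1 of these transcripts. The gene body of the antisense neighbour Hand2os1 in GENCODE runs across Hand2 on the other strand (chromosome 8, 57281117 to 57324233). Because the libraries were unstranded, reads of the 2 genes cannot be told apart wherever their exons overlap. The exons of Hand2os1 were not read. Hand2os1 was not analysed here.

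The 250 bases before the RefSeq start of Hand2 (GRCm38.p6) are printed because regulators followed here can bind E-box and homeodomain motifs. On both strands these bases were searched for the E-box CANNTG, which bHLH dimers bind, and the homeodomain core TAATTA, which Dlx and Hox proteins can bind. CCAAT was searched for as well, and no regulator followed here was chosen for it. Capitals mark the matches.
Hand2 promoter chr8:57320733-57320982 (plus strand): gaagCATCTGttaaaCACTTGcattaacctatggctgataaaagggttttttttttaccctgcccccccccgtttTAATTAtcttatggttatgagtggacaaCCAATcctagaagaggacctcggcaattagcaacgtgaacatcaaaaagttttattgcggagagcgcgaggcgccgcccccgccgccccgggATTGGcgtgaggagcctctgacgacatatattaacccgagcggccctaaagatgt
There were 2 E-boxes (CATCTG and CACTTG), 1 TAATTA and 2 CCAAT matches, 1 of them on the other strand (ATTGG). Of all 32851 RefSeq promoters of this length, 66.2% held an E-box, 4.84% held TAATTA and 33.8% held CCAAT. These matches describe letters only and say nothing of binding. The RefSeq start of Hand2os1 lies 124 bases from that of Hand2, inside this window and on the other strand. A transcript from that start runs away from Hand2, unlike the GENCODE gene body, which runs across it.

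The libraries held 18.8 to 49.8 M counts each (M, 1e6 counts), with a median of 30.6 M. The sorted cells carried crest mesenchyme markers, with counts for 7 of 7 genes in every group and summed levels of 1162 to 2792 CPM at E10.5 and E11.5 against 268 to 329 CPM at E8.5. CPM stands for counts per 1e6 counts of a library total scaled by edgeR's TMM factor. The E8.5 libraries also held the highest summed marker levels of endothelium (133 to 146 CPM over 6 genes), epithelium (138 to 168 CPM over 7 genes) and red cells (611 to 984 CPM over 6 genes, with Hba-a1 at 0 counts). Ezh2 in Ezh2cKO averaged 35.9% to 39.9% of the wild-type level in the 4 subpopulations. Hoxa2 was at 92.8, 112 and 124 CPM in HoxA2OE against 0.248 to 0.297 in wild-type Md and 124 to 127 in wild-type PA2. In Hoxa2TempMut it was at 195, 185 and 176 CPM against 268, 268 and 269 in Control (log2 fold change -0.54 ± 0.21, adjusted p = 0.503, edgeR's quasi-likelihood test) and 183 to 199 in wild-type PA2 of that stage, so no loss of this RNA was called in the libraries labelled Hoxa2TempMut. Whether the count covers the deleted part of the gene is not given in the labels. The HoxA2OE libraries stood apart: mitochondrial RNA took 45.9% of the counts of replicate 1 against 28.5% in the others, the scaling factors of the 3 were 0.514, 0.775 and 0.765, and the chi-square per degree of freedom of replicate 1 against the others was 316 and 331. The Hand1 and Hand2 differences that rest on them are therefore given with and without that library. Values of other genes in HoxA2OE are given with all 3 libraries.

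In wild-type embryos at E10.5, RNA of both genes was found mainly in Md and PA2. Hand1 was at 86.7, 64.7 and 69.2 CPM in Md and at 10.8, 9.40 and 7.86 CPM in PA2. In Mx it was at 0.372 and 0.126 CPM, and in FNP at 0.0395, 0.102 and 0.130 CPM, which rests on 8 counts in all. The 3 Md libraries were all above the 3 PA2 libraries, and these were all above Mx and FNP. Hand2 was at 67.6, 64.9 and 59.9 CPM in Md and at 37.1, 35.7 and 44.2 CPM in PA2. In Mx it was at 0.399 and 0.0629 CPM, and in FNP it had 0 counts in each library, which allows a level of up to 0.0352 CPM (3 counts over the group, for counting error only). For Hand2 no 2 of the 4 subpopulations overlapped. In bulk RNA of this kind, fewer cells with the transcript and less RNA per cell cannot be told apart.

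**Figure D1:**
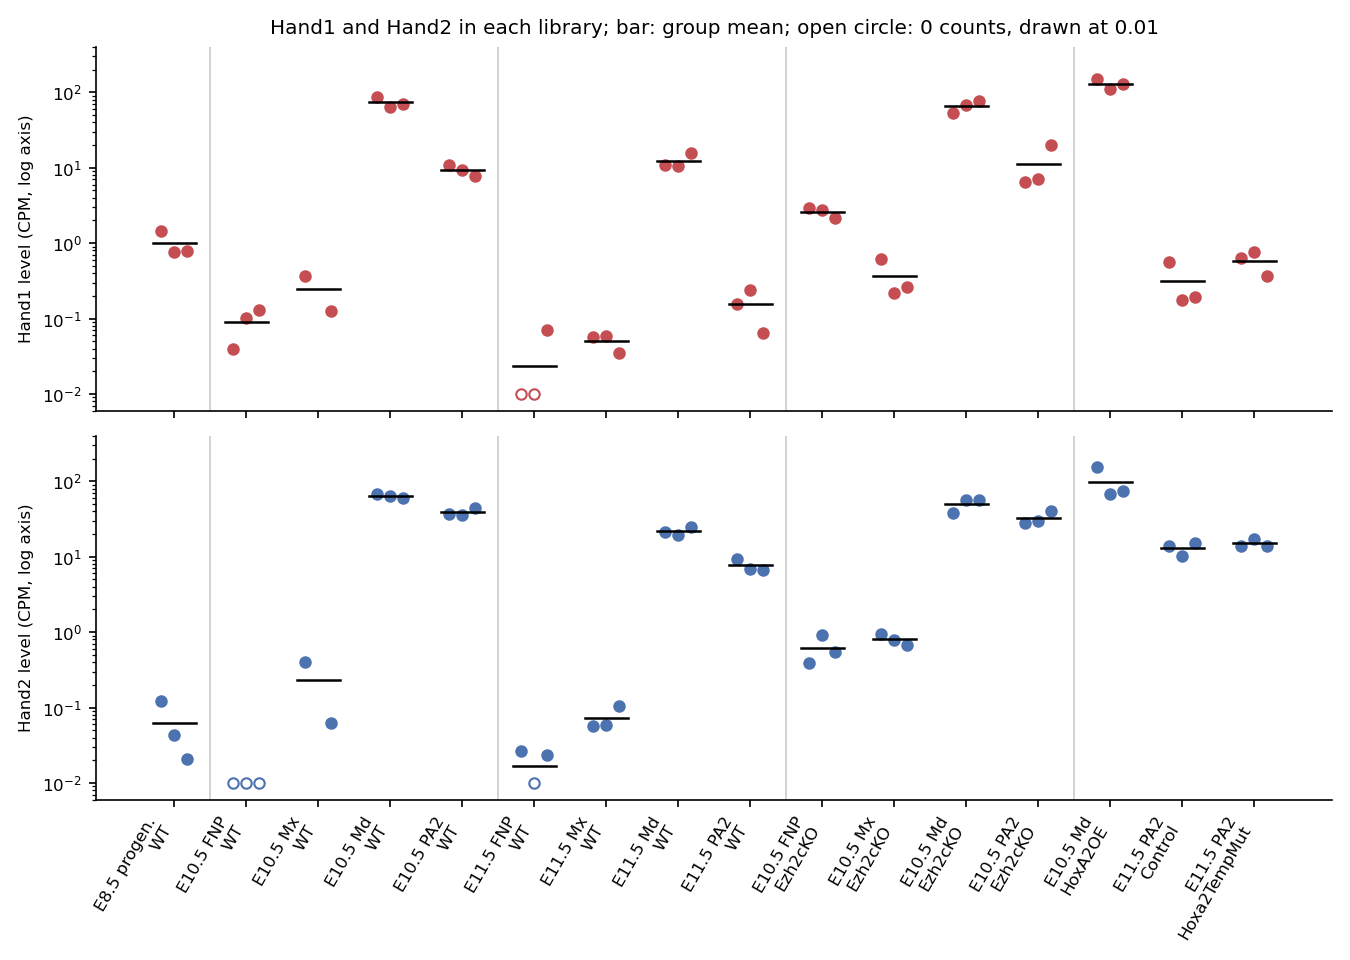
Level of Hand1 (top) and Hand2 (bottom) in every library, in CPM on a log axis, for the 16 groups; points are libraries, bars are group means, and open circles mark 0 counts. For Hand2, Md and PA2 groups lie well above FNP and Mx groups. For Hand1 the Md groups and the PA2 groups of E10.5 lie above them, while the PA2 groups of E11.5 lie among them. HoxA2OE Md is highest for both genes, and the wild-type FNP libraries at E10.5 have no Hand2 count.

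Both genes were called higher in Md than in Mx at E10.5, where 2.64% of the 20560 genes tested were called higher; a gene was called at an adjusted p under 0.05. The log2 fold change was 8.13 ± 0.49 (SE) for Hand1 (adjusted p = 1.57e-16) and 8.02 ± 0.42 for Hand2 (adjusted p = 1.49e-17). PA2 also exceeded Mx in both, with 4.14% of genes called higher. That difference was 5.16 ± 0.50 for Hand1 (adjusted p = 8.04e-11) and 7.30 ± 0.42 for Hand2 (adjusted p = 8.06e-17). Between Mx and FNP, Hand1 differed by 1.42 ± 0.99 (adjusted p = 0.371). Hand2 was called higher in Mx than in FNP (adjusted p = 0.0123, at least 6.96-fold from the counts pooled over each group, 17 against 0; 7.69% of genes called higher), but 15 of the 17 counts came from Mx replicate 1, and without that library the adjusted p was 0.396.

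The gap between Md and PA2 was of unlike size for the genes. At E10.5 Hand1 was 7.85-fold higher in Md (2.97 ± 0.28 in log2, adjusted p = 6.99e-11) and Hand2 was 1.65-fold higher (0.72 ± 0.22, adjusted p = 0.0459), against 1.95% of genes called higher. The Hand2 call lay at the edge of the threshold, although its Md and PA2 libraries did not overlap. It was lost with RLE scaling (adjusted p = 0.0651), with upper-quartile scaling (0.0586), with DESeq2 (0.0752) and when any 1 of the 6 libraries was left out. At E11.5 Hand1 was at 10.8, 10.6 and 15.9 CPM in Md. In PA2 it was at 0.155, 0.242 and 0.0642 CPM, which rests on 15 counts in all. Every Md library was thus far above every PA2 library, by 78.2-fold in the fit (6.29 ± 0.45, adjusted p = 3.08e-14). Hand2 at E11.5 was at 21.05, 19.2 and 24.8 CPM in Md and at 9.44, 6.94 and 6.75 CPM in PA2. The groups again did not overlap, and the difference was 2.81-fold (1.49 ± 0.23, adjusted p = 7.93e-06; 3.78% of genes called higher in Md). Against Mx of E11.5, with 0.035 to 0.0592 CPM of Hand1 and 0.0565 to 0.105 CPM of Hand2, both genes were called higher in Md (7.82 ± 0.53, adjusted p = 5.5e-15, and 8.16 ± 0.43, adjusted p = 5.79e-18; 4.96% of genes called higher). Hand2 alone was called higher in PA2 than in Mx (6.67 ± 0.46, adjusted p = 7.47e-15; 7.74% called higher), while Hand1 differed by 1.53 ± 1.14 (adjusted p = 0.49).

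Counts per kilobase of exon allow both genes to be set side by side. In wild-type Md at E10.5, Hand1 was at 36.8 ± 5.83 CPM per kb (SD, n = 3) and Hand2 at 28.7 ± 1.75. In PA2 of that stage the order was the other way round, with Hand1 at 4.68 ± 0.739 and Hand2 at 17.5 ± 2.04 CPM per kb. At E11.5 Hand2 was the higher in both places, at 9.70 ± 1.26 against 6.24 ± 1.504 CPM per kb in Md and 3.45 ± 0.673 against 0.0771 in PA2.

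The ratio of Hand1 to Hand2 counts within a library does not depend on scaling. As log2 of the counts with 0.5 added to each, it was 0.187 ± 0.183 in wild-type Md and -2.06 ± 0.375 in PA2 of E10.5. On the later day Md was at -0.815 ± 0.164 and PA2 at -5.65 ± 0.830 (SD, n = 3 each). The Md libraries lay above the PA2 libraries at both stages, by 2.25 and 4.83 on the mean. An exact permutation test, two-sided, gave p = 0.1 for each, which is the smallest p that 3 against 3 libraries allow. In Ezh2cKO the ratio was 0.388 ± 0.129 in Md and -1.74 ± 0.605 in PA2. In HoxA2OE Md it was 0.478 ± 0.457, with the lowest library, replicate 1, at -0.0480. Control and Hoxa2TempMut PA2 were at -5.51 ± 0.844 and -4.70 ± 0.432.

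**Figure D2:**
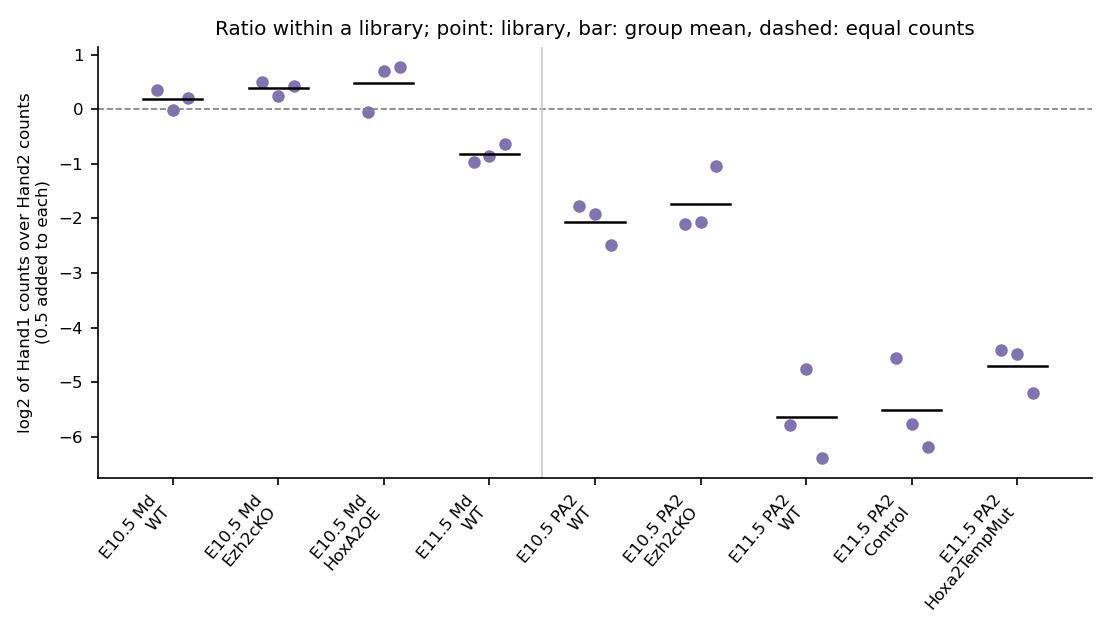
Log2 of Hand1 counts over Hand2 counts (0.5 added to each) in each library of the Md and PA2 groups; points are libraries, bars group means, and the dashed line marks equal counts. Md at E10.5 lies near 0 in all 3 genotypes, PA2 at E10.5 near -2, and the PA2 groups at E11.5 near -5.

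Both genes fell from E10.5 to E11.5 in Md and in PA2, where 17% and 18.1% of the genes tested were called lower. In Md, Hand1 was 5.89-fold lower (log2 fold change -2.56 ± 0.27, adjusted p = 3.15e-10) and Hand2 was 2.96-fold lower (-1.57 ± 0.22, adjusted p = 3.82e-07). In PA2, Hand1 was 58.7-fold lower (-5.88 ± 0.46, adjusted p = 2.47e-13, from 623 to 15 counts) and Hand2 5.06-fold lower (-2.34 ± 0.23, adjusted p = 2.16e-10). No library of E11.5 reached the lowest library of E10.5 for either gene in either place. For Hand1 the difference between the 2 changes was itself called, at 3.32 ± 0.60 (adjusted p = 0.000381; 1.16% of genes called in this direction). The same difference for Hand2 was 0.77 ± 0.31 (adjusted p = 0.415, 95% interval 0.16 to 1.39), and it passed the threshold when only the groups compared were fitted (0.75, adjusted p = 0.0120). In Mx the stage change was -2.25 ± 1.09 for Hand1 (adjusted p = 0.101) and -1.71 ± 0.90 for Hand2 (adjusted p = 0.135), with 38.3% of genes called in either direction, and in FNP neither gene had more than 8 counts over a group at either stage. Summed marker levels moved over the same day. Red cell markers went from 219 to 283 CPM down to 54.0 to 78.2 in Md, and from 175 to 423 down to 27.5 to 43.5 in PA2. Endothelial markers went up from 3.40 to 4.37 CPM to 14.4 to 22.02 in Md, and from 2.85 to 3.23 to 11.6 to 13.7 in PA2. Crest mesenchyme markers went up from 1607 to 1638 CPM to 2285 to 2349 in Md, and from 1318 to 1435 to 2280 to 2503 in PA2. Their part in the stage change of the Hand genes was not tested.

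In the E8.5 progenitors, Hand1 was at 1.45, 0.755 and 0.796 CPM and Hand2 at 0.121, 0.0431 and 0.0209 CPM. These rest on 133 and 8 counts, and per kb Hand1 was at 0.502 and Hand2 at 0.0276 CPM. Replicate 1, with 60 of the 133 Hand1 counts, stood apart. Its chi-square per degree of freedom against the others was 118 and 128, against 6.67 between replicates 2 and 3. All progenitor libraries lay below all Md and PA2 libraries of E10.5 for both genes. The rise to Md was 6.21 ± 0.34 for Hand1 (adjusted p = 2.25e-19) and 9.99 ± 0.41 for Hand2 (adjusted p = 8.88e-23), with 28.8% of genes called higher. The rise to PA2 was 3.24 ± 0.33 for Hand1 (adjusted p = 3.66e-11) and 9.27 ± 0.41 for Hand2 (adjusted p = 1.27e-21), with 29.5% of genes called higher. The part of the endothelial, epithelial and red cell RNA in the Hand1 level at E8.5 was not tested.

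Ordered by mean level over the 16 groups, Hand1 ran from HoxA2OE Md (130 ± 20.1 CPM) through wild-type Md (73.6 ± 11.6), Ezh2cKO Md (66.0 ± 11.4), wild-type Md at E11.5 (12.47 ± 3.003), Ezh2cKO PA2 (11.2 ± 7.62) and wild-type PA2 (9.36 ± 1.48) to Ezh2cKO FNP (2.60 ± 0.381) and E8.5 progenitors (1.00 ± 0.392). Neighbours in this order were separated between HoxA2OE Md and wild-type Md, between Ezh2cKO Md and E11.5 Md, and on both sides of Ezh2cKO FNP. The other neighbours overlapped, and so did each pair of neighbours among the 8 groups below the progenitors, from 0.588 ± 0.206 CPM in Hoxa2TempMut PA2 to 0.0237 ± 0.0410 in wild-type FNP at E11.5. Hand2 ran from HoxA2OE Md (99.5 ± 48.5 CPM) through wild-type Md (64.2 ± 3.91), Ezh2cKO Md (50.8 ± 11.1), wild-type PA2 (39.0 ± 4.55), Ezh2cKO PA2 (32.9 ± 7.10) and wild-type Md at E11.5 (21.7 ± 2.83) to the 3 PA2 groups of E11.5, at 15.04 ± 2.07 in Hoxa2TempMut, 13.1 ± 2.43 in Control and 7.71 ± 1.503 in wild type. All other groups were below 1 CPM, led by Ezh2cKO Mx (0.804 ± 0.136) and Ezh2cKO FNP (0.612 ± 0.263). Among the first 10 groups, neighbours overlapped between Ezh2cKO Md and wild-type PA2, between the 2 PA2 groups of E10.5, and between Hoxa2TempMut and Control, while HoxA2OE Md and wild-type Md were only just apart, at 67.8 against 67.6 CPM. From Ezh2cKO Mx down, each neighbouring pair overlapped or met at 0.

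Ezh2 encodes the methyltransferase of Polycomb repressive complex 2, which marks silent genes on histone H3. In FNP, where wild-type cells had almost no RNA of either gene, both were called higher in Ezh2cKO, with 4.97% of genes called higher. Hand1 was at 2.89, 2.75 and 2.167 CPM in Ezh2cKO against 0.0395, 0.102 and 0.130 in wild type (217 against 8 counts). The groups were far apart, by 26.7-fold (log2 fold change 4.74 ± 0.60, adjusted p = 2.18e-07). Hand2 was at 0.392, 0.903 and 0.542 CPM in Ezh2cKO, 51 counts in all, against 0 counts in wild type (at least 17.4-fold higher from the pooled counts, adjusted p = 0.000146). All 3 mutant libraries thus had counts for a gene with none in the 3 controls. These levels were low beside the arch, at 3.53% of the wild-type Md level for Hand1 and 0.954% for Hand2.

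In the other 3 subpopulations neither gene was called. In Mx, Hand1 was at 0.618, 0.219 and 0.264 CPM in Ezh2cKO, overlapping wild type (0.50 ± 0.77, adjusted p = 0.789), and Hand2 was at 0.948, 0.787 and 0.678 CPM, above both wild-type libraries (1.70 ± 0.58, adjusted p = 0.055; 10.3% of genes called in either direction). That Hand2 difference, of 59 against 17 counts, passed the threshold with upper-quartile scaling, with library totals, without a filter and with DESeq2. In Md, Hand1 was at 53.7, 68.0 and 76.4 CPM, of which 2 lay within the wild-type range and 1 below it (-0.16 ± 0.25, adjusted p = 0.828, 95% interval -0.64 to 0.33; 8.87% of genes called). Hand2 in Md was at 38.0, 57.3 and 57.1 CPM, all below the lowest wild-type library at 59.9, with a difference of -0.34 ± 0.22 (adjusted p = 0.428, 95% interval -0.76 to 0.09). In PA2, Hand2 was at 27.9, 29.9 and 41.1 CPM, overlapping wild type (-0.24 ± 0.22, adjusted p = 0.596; 9.17% of genes called). Hand1 in PA2 was at 6.44 and 7.15 CPM in 2 libraries and at 19.98 CPM in replicate 3, above every wild-type library (0.26 ± 0.27, adjusted p = 0.67). Without replicate 3 the Hand1 difference in PA2 was -0.46.

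Whether the Ezh2cKO effect differed among the 4 subpopulations was asked with an F test of 3 contrasts, which 1.63% of genes passed. Both genes did, Hand1 at an adjusted p of 4.63e-05 and Hand2 at 0.000417. Between Md and PA2 alone the effect differed by -0.42 ± 0.37 for Hand1 and -0.09 ± 0.31 for Hand2 (adjusted p = 1 for both; 0.253% of genes called). Within Ezh2cKO, Hand1 was still higher in Md than in PA2 (2.56 ± 0.27, adjusted p = 5.24e-09; 1.15% of genes called higher), and Hand2 differed by 0.62 ± 0.22 (adjusted p = 0.162). Md also exceeded Mx in Ezh2cKO, by 7.48 ± 0.40 for Hand1 and 5.98 ± 0.31 for Hand2 (adjusted p = 1.8e-17 for both; 2.15% called higher).

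Because both genes are also active in the heart and Hand2 in sympathetic neurons, markers of those cells were read in the same FNP libraries. The summed level of 12 cardiac mesoderm markers was 4.04 to 4.51 CPM in wild type, with counts for 9 genes, and 22.97 to 27.6 CPM in Ezh2cKO, with counts for 11. Most of the difference lay in transcription factor genes. Gata4 and Tbx5 went from 0 counts to 2.92 to 3.14 and 3.58 to 4.12 CPM, Isl1 from 1.70 to 2.70 to 6.65 to 9.48 CPM, and Tbx20 from 1.07 to 2.25 to 5.78 to 7.59 CPM. Among genes of the contractile apparatus, Myh7 had 0 counts in Ezh2cKO FNP, and Myh6, Tnnt2 and Myl7 did not exceed 0.108 CPM. The FNP level of Actc1, a sarcomeric actin gene, is not reported here. In Md the summed cardiac level was 7.68 to 10.3 CPM in wild type and 31.1 to 35.8 in Ezh2cKO, and in PA2 it was 2.67 to 4.74 and 20.6 to 21.98 CPM. In Mx it overlapped, at 25.6 to 29.6 CPM in wild type and 23.1 to 58.3 in Ezh2cKO. Summed over 8 sympathetic and autonomic markers, FNP went from 112 to 126 CPM in wild type to 141 to 163 CPM in Ezh2cKO, where Dbh, the noradrenaline synthesis gene of such neurons, had 0 counts. Most of that difference lay in the transcription factor genes Gata2 (79.1 to 90.5 CPM in wild type, 103 to 113 in Ezh2cKO) and Gata3 (27.1 to 29.5 and 31.4 to 42.9). The part of RNA from cardiac or neuronal cells in the Hand levels of Ezh2cKO was not tested.

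**Figure D3:**
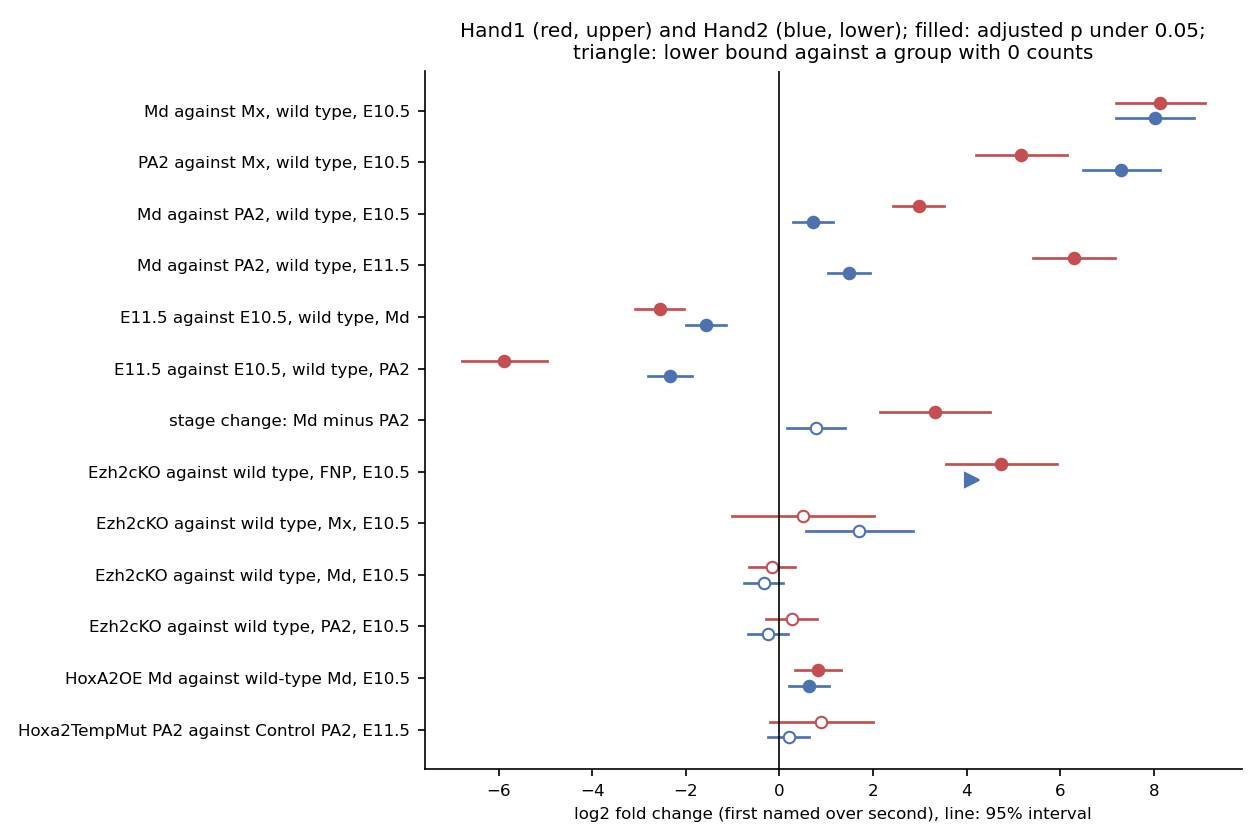
Log2 fold change of Hand1 (red, upper) and Hand2 (blue, lower) in 13 comparisons, with the group named first over the second; lines are 95% intervals, filled points are called, and the triangle is the lower bound of Hand2 in Ezh2cKO FNP, whose wild type has 0 counts. Md and PA2 exceed Mx by far for both genes, Hand1 has a larger fold than Hand2 between Md and PA2, and the Ezh2cKO effects in Md and PA2 lie around 0.

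Hoxa2 is the Hox gene that sets second arch identity, and in HoxA2OE it was expressed in Md, where wild-type cells nearly lack it. Hand1 was at 150.2, 109.98 and 129.7 CPM in HoxA2OE Md, all above the 3 wild-type Md libraries. Hand2 was at 155 CPM in replicate 1 and at 67.8 and 75.4 CPM in the others, so that the mean of 99.5 was set by the library that stood apart. In the fit both were called higher, where 27.1% of genes were called higher: Hand1 by 0.82 ± 0.25 (1.77-fold, adjusted p = 0.00512) and Hand2 by 0.63 ± 0.21 (1.55-fold, adjusted p = 0.0126). Without replicate 1 the Hand1 difference was 0.69 (adjusted p = 0.0237) and that of Hand2 was 0.14 (adjusted p = 0.559). When libraries were scaled to their totals, neither was called, at 0.19 for Hand1 (adjusted p = 0.535) and -0.079 for Hand2 (adjusted p = 0.737); that scaling moved the median of all genes from -0.07 to -0.67 and the share of called genes that were higher from 49.4% to 11.04%. Both values lay above that median, with replicate 1 included, and their distance from it was not tested.

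Both genes were also higher in HoxA2OE Md than in the wild-type second arch. Against wild-type PA2, Hand1 was higher by 3.79 ± 0.28 (adjusted p = 1.16e-13) and Hand2 by 1.35 ± 0.22 (adjusted p = 2.38e-06), with 27.8% of genes called higher, and no library overlapped. Without replicate 1 of HoxA2OE the values were 3.65 for Hand1 and 0.85 for Hand2, both still called. Markers of red cells also differed in these libraries, at 10.4 to 13.3 summed CPM over 6 genes in HoxA2OE against 219 to 283 in wild-type Md. Summed crest mesenchyme markers were higher, at 2090 to 2792 CPM against 1607 to 1638, and so were cardiac (14.6 to 19.95 against 7.68 to 10.3) and endothelial markers (8.84 to 10.3 against 3.40 to 4.37). The part of these cells in the Hand differences was not tested.

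In PA2 at E11.5, Hoxa2TempMut was compared with Control. Hand1 was at 0.637, 0.764 and 0.362 CPM in the mutant and at 0.567, 0.177 and 0.194 CPM in Control, and the libraries overlapped. Hand2 was at 13.9, 17.4 and 13.8 CPM in the mutant and at 13.7, 10.4 and 15.1 CPM in Control, again with overlap. Neither was called: the difference was 0.89 ± 0.56 for Hand1 (adjusted p = 1, 95% interval -0.21 to 1.99) and 0.20 ± 0.22 for Hand2 (adjusted p = 1, 95% interval -0.24 to 0.64), in a comparison where 0.623% of genes were called. Control itself differed from wild-type PA2 of the same stage. Hand2 was called higher in Control (0.76 ± 0.23, 1.70-fold, adjusted p = 0.0144; 10.1% of genes called higher), with no overlap between libraries, and Hand1 differed by 0.99 ± 0.76 (adjusted p = 0.38). Leaving out wild-type replicate 2 or 3 or Control replicate 3 ended the Hand2 call. Against the same wild-type libraries, Hoxa2TempMut was higher in Hand1 by 1.88 ± 0.67 (3.68-fold, adjusted p = 0.0298) and in Hand2 by 0.96 ± 0.23 (1.95-fold, adjusted p = 0.0015), where 14.3% of genes were called higher. Leaving out wild-type replicate 1 or 3 or mutant replicate 1 or 2 ended the Hand1 call, which rests on 61 counts against 15. These comparisons share the Control or the wild-type libraries. Cardiac markers also differed among these groups, at 27.9 to 46.1 summed CPM in Control, 22.5 to 26.9 in the mutant and 7.70 to 14.1 in wild type. Most of that lay in Actc1, a sarcomeric actin gene, at 20.3 to 37.6 CPM in Control, 14.4 to 17.3 in the mutant and 1.94 to 7.67 in wild type. Isl1 was at 2.13 to 4.62, 1.36 to 3.02 and 0.121 to 0.932 CPM in the same order. Gata4 had 0 counts in all 3 groups. Cranial mesoderm and muscle markers, a list of 6, were at 3.94 to 5.78 summed CPM in Control, 2.56 to 4.60 in the mutant and 0.848 to 1.46 in wild type. The part of cardiac or muscle cells in the Hand levels was not tested.

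Upstream genes were read from a list of 8 endothelin-1 pathway genes. Ednra, the receptor gene, did not follow the Hand pattern at E10.5: it was at 132 ± 7.32 CPM in Md, 117 ± 10.7 in PA2, 104 ± 6.97 in Mx and 228 ± 25.7 in FNP, where both Hand genes were lowest. Edn1, the ligand gene, had 0 counts in FNP, Mx and Md of that stage. Between Md and PA2 at E10.5 no gene of this list was called in either direction (median log2 fold change 0.09, against 0.00 over all genes tested). Of all genes, 1.95% were called higher there and 2.72% lower. Between Md and Mx, 1 was called lower and none higher (median 0.07), against 3.97% and 2.64% of all genes.

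Dlx5 and Dlx6, the genes between endothelin and Hand2, were high where Hand2 was high. Dlx5 was at 151 ± 17 CPM in Md, 155 ± 5.3 in PA2, 20.8 ± 0.92 in Mx and 4.65 ± 1.1 in FNP at E10.5. Of the 11 genes of the distal arch list to which they belong, 9 were higher and 1 lower in Md than in Mx (median 3.29, against 0.00 over all genes; 2.64% of all genes were higher and 3.97% lower). Between Md and PA2 at E10.5 the list split, with 6 higher and 4 lower (median 0.87; 1.95% and 2.72% of all genes). Alx4, a homeobox gene of facial mesenchyme, was higher in Md by 4.11 ± 0.15, whereas Dlx3, another Dlx gene of the distal arch, was lower by 1.43 on the log2 scale (43.9 ± 6.65 against 119 ± 15.3 CPM). Dlx3 therefore had the order opposite to Hand1, which was lower in PA2. From E10.5 to E11.5 in Md, 5 of the 11 fell and 1 rose (median -0.39, against 0.02 over all genes), where 17% of all genes fell and 21.3% rose. Among them were Rgs5 (-2.94 ± 0.31) and Dlx6 (-1.03 ± 0.15), while Has2, the hyaluronan synthase gene, rose (1.28 ± 0.10). In PA2 6 fell and 1 rose (median -0.40; 18.1% and 21.4% of all genes), with Rgs5 at -3.05 ± 0.33 and Cited1 at -2.42 ± 0.18.

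In Ezh2cKO FNP, where both Hand genes rose, 5 of the 11 distal genes rose and 1 fell (median 0.76, against -0.02 over all genes; 4.97% of all genes rose and 1.83% fell). In Ezh2cKO Mx, where neither Hand gene was called, 8 of the 11 rose and none fell (median 0.95, against -0.01; 6.85% and 3.41% of all genes). In Md 1 rose and 1 fell, and in PA2 2 rose and 2 fell, where 8.87% and 9.17% of all genes were called in either direction. In FNP, Dlx5 rose from 4.65 ± 1.1 to 10.3 ± 0.897 CPM (1.13 ± 0.18, adjusted p = 1.1e-05), and Alx4 fell by 0.57. In HoxA2OE Md, 4 rose and 7 fell (median -0.60, against -0.07), in a comparison where 27.1% of all genes rose and 27.8% fell. Those that changed included Gbx2 at -2.59 ± 0.23, Gsc at -1.55 ± 0.21 and Has2 at 1.34 ± 0.10, whereas Hand1 was higher. In Hoxa2TempMut against Control PA2, 2 rose and 1 fell (median 0.18, against 0.01; 0.623% of all genes changed), with Gbx2 at 1.36 ± 0.21 and Alx4 at 1.203 ± 0.13, while neither Hand gene was called.

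BMP ligands and BMP-responsive genes, a list of 12, were compared between the same places. Against PA2 at E10.5, 6 were higher in Md and none lower (median 0.52; 1.95% and 2.72% of all genes), among them Msx2 (2.28 ± 0.18) and Msx1 (1.91 ± 0.17). Against Mx of that stage the list did not follow Hand1, with 3 higher and 1 lower in Md (median 0.20; 2.64% and 3.97% of all genes) and 2 higher and 6 lower in PA2 (median -0.48; 4.14% and 4.62%). At E11.5 none was higher and 5 were lower in Md than in Mx (median -0.48; 4.96% and 4.23% of all genes). From E10.5 to E11.5 in Md, 3 rose and 5 fell (median -0.01; 21.3% and 17% of all genes). Msx2 fell with the Hand genes (-2.03 ± 0.18, from 53.0 ± 3.59 to 12.97 ± 3.03 CPM), and Bmp2 rose (2.85 ± 0.19). Of the genes of possible dimer partners, Twist1, Twist2, Tcf4 and Tcf12 rose over the same time in Md, the first by 0.93 ± 0.19. Tcf3, the last of the 5, fell (median 0.68, where 21.3% of all genes rose and 17% fell).

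Runx2, the master regulator of bone, rose over that day in all 4 places. In Md it went from 24.99 ± 4.17 to 153 ± 3.36 CPM (2.61 ± 0.18), and in PA2, where both Hand genes fell too, from 16.9 ± 2.70 to 39.3 ± 0.935 CPM (1.22 ± 0.18). In FNP and Mx, with almost no Hand RNA, it went from 26.9 ± 2.46 to 224 ± 16.5 CPM (3.06 ± 0.18) and from 40.0 ± 2.69 to 289 ± 2.57 CPM (2.85 ± 0.21). Of the 5 early bone genes tested, 4 rose and none fell in Md (median 2.53; 21.3% and 17% of all genes), and 2 rose and none fell in PA2 (21.4% and 18.1%). In FNP 3 rose and 1 fell (22.7% and 20% of all genes), and in Mx 3 rose and 2 fell (20% and 18.3%). Of the tested genes, Ibsp and Spp1 had lower means at E11.5 in both places, and both were low from the start. At E10.5 they averaged 0.845 and 0.200 CPM in FNP and 0.995 and 0.457 CPM in Mx.

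Of the 8 proximal and intermediate arch genes, 2 were higher and 3 lower in Md than in PA2 at E10.5 (median -0.34; 1.95% and 2.72% of all genes), with Pou3f3, a proximal marker, lower by 2.98 on the log2 scale (-2.98 ± 0.19).

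Genes most alike to each Hand gene were ranked by Pearson's r of log2 CPM over the 16 group means among 20559 genes, a description with no test, since groups share stages and genotypes. For Hand1 they were Gpr50 (r = 0.898), which encodes an orphan receptor, Cited1 (0.885), a transcriptional coactivator gene, Cgnl1 (0.875), a cell junction gene, Dgkk (0.856), a diacylglycerol kinase gene, and Fndc3c1 (0.850). Hand2 was the 18th in this ranking (0.788). For Hand2 they were the lincRNA gene AC119275.1 (0.988), the growth factor gene Igf2 (0.966), Zim1 (0.953), Dlx6 (0.940) and Zdbf2 (0.930), of which Igf2, Zim1 and Zdbf2 are known as imprinted genes. Hand1 was the 87th in that ranking. With Spearman's rho in place of r, 3 of the 5 stayed for Hand1 and 2 of the 5 for Hand2.

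AC119275.1 (ENSMUSG00000097910, named 5033428I22Rik in GENCODE) lies on the plus strand of chromosome 8, from 57332118 to 57340682, 7601 bases downstream of Hand2. It was at 18.5, 19.4 and 15.6 CPM in wild-type Md at E10.5 and at 10.54, 9.35 and 9.73 CPM in PA2. The groups did not overlap (0.85 ± 0.19, adjusted p = 0.00323). In Mx it had 6 counts in replicate 1 and 0 in replicate 2, and in FNP 0 counts. It fell with Hand2 to E11.5, by 1.05 ± 0.19 on the log2 scale in Md and by 2.09 ± 0.21 in PA2. In Ezh2cKO FNP it had 11 counts against 0 in wild type (at least 3.75-fold, adjusted p = 0.00871), a call that ended without mutant replicate 1.

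As a share of the Hand2 counts, AC119275.1 was at 27.7% ± 1.957 in Md and 25.5% ± 3.26 in PA2 at E10.5 (SD, n = 3). The share was 20.6% ± 5.37 in Ezh2cKO Md, 24.2% ± 3.16 in Ezh2cKO PA2, 40.5% ± 10.3 in Md at E11.5, and from 28.6% to 31.5% on the mean in the 3 PA2 groups of E11.5. In 2 groups its call differed from that of Hand2, and the difference between the genes was not tested. In Ezh2cKO Md it fell (-0.82 ± 0.19, adjusted p = 0.00327; 10.1, 9.24 and 10.9 CPM), while Hand2 was not called. In HoxA2OE Md it was at 7.81, 8.03 and 8.87 CPM, lower than in wild type by 1.11 on the log2 scale (-1.11 ± 0.19, adjusted p = 8.45e-06), and at 5.03% to 11.9% of the Hand2 counts. In that comparison 27.8% of all genes were called lower, and lincRNA genes as a class were low too, with a median of -0.44 over 1055 genes against -0.07 over all genes. In Ezh2cKO Md the lincRNA median was 0.03 over 1055 genes against -0.01 over all genes, with 8.87% of all genes called in either direction.

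**Figure D4:**
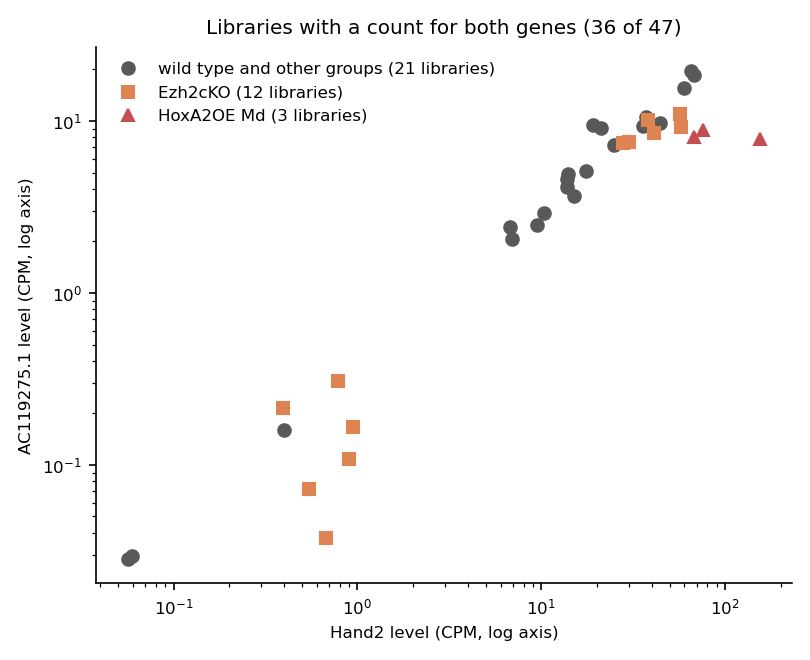
Level of the lincRNA gene AC119275.1 against that of Hand2, both in CPM on log axes, in the 36 of 47 libraries with a count for both; circles are wild type, Control and Hoxa2TempMut, squares Ezh2cKO and triangles HoxA2OE Md. The points follow 1 band over the whole range, and the 3 HoxA2OE libraries lie below it.

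Other genes near both Hand genes were read in the same comparisons. Within 300 kb of Hand2, 8 genes are in the table and 6 were tested. AC119275.1 alone among them was called in Md against Mx at E10.5 and in Ezh2cKO FNP, where 2.64% and 4.97% of all genes were called higher. The next highest r with Hand2 was 0.275. Over time, 4 of the 6 fell in Md and the same number in PA2, where Hand2 fell too (17% and 18.1% of all genes fell). Besides AC119275.1 these were Galnt7 (-0.55 ± 0.088 in Md and -0.46 ± 0.088 in PA2), Sap30 (-0.91 ± 0.21 and -0.61 ± 0.21) and Hmgb2 (-0.95 ± 0.16 and -0.71 ± 0.16). The Sap30 call in PA2 ended without PA2 replicate 1 of E10.5 (-0.56) or replicate 3 of E11.5 (-0.55). The same 3 genes were called higher in HoxA2OE Md, where 27.1% of all genes were: Sap30 by 1.38 ± 0.21, Hmgb2 by 0.79 ± 0.16 and Galnt7 by 0.45 ± 0.087. With library totals Hmgb2 was no longer called (0.094), nor with only the groups compared (0.77), and Galnt7 turned to -0.14 with library totals. Within 300 kb of Hand1, 19 genes are in the table and 14 were tested. None of the 14 was called in Md against Mx, and the highest r with Hand1 was 0.607, for Sap30l. In Ezh2cKO FNP, 1 was called, Gemin5, with a log2 fold change of -0.40, a call lost with library totals and with only the groups compared. Over time 3 fell and 1 rose in Md (17% and 21.3% of all genes), and 3 fell and 2 rose in PA2 (18.1% and 21.4%). In HoxA2OE Md 3 were higher and 4 lower (27.1% and 27.8% of all genes).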

How the data were processed

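RNA was measured in 47 libraries of sorted cranial neural crest cells, made with ScriptSeq v2 without strand and read as single ends of 50 bases, 3 barcoded samples to a pool, per the labels' protocols. The authors deposited raw counts per gene with symbols and coordinates. Per the submitters' processing notes they used bcl2fastq 2.17 and GRCm38 (mm10). The aligner is not given in the sources used here, nor are the counter and annotation release. Of the columns, 22 names appear 2 times with identical values and were used once.

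Genes were filtered with filterByExpr (minimum count 10, minimum total 15), which left 20560. All libraries entered 1 edgeR 4.0.16 model (R 4.3.3) of group means with TMM scaling (31 residual degrees of freedom). Adjusted p-values are from its quasi-likelihood test with Benjamini-Hochberg adjustment over all genes of a comparison, for 28 comparisons. SEs come from the F statistic, and 95% intervals are 1.96 SE. For a lower bound of a fold, counts were pooled over each group and 0 was set at 3. The script was tested on simulated data. RefSeq and GENCODE gave sequences and exons, and no RefSeq promoter was matched for Hand1.

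The 2 genes and the 6 gene lists were chosen with earlier results of these data known. From a list, up to 4 called genes of largest fold with at least 5 CPM were named; Dlx5, Ednra and Edn1 levels were added as steps upstream of Hand2, and values of some list genes are not reported here. Deviations of same-numbered replicates from their group means correlated at -0.104 to 0.237, and 0 of 25 comparisons had every correlation over 0.1. Comparisons with Mx at E10.5 could not meet that rule, since that group had too few libraries. Alternatives were RLE and upper-quartile scaling, library totals, no filter, a replicate block, only the groups compared, DESeq2 1.42.0, and leaving out each library.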

Additional observations from a re-analysis of the deposited data

Results flagged for a closer look

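The fall of Hand1 from E10.5 to E11.5 differed between Md and PA2, by 3.32 on the log2 scale in the interaction term. The wild-type PA2 level of Hand1 at E11.5 rests on 15 counts. Hand1 was higher in all 3 libraries of E10.5 than in all 3 of E11.5 in both places.

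The effect of Ezh2cKO on Hand1 differed among FNP, Mx, Md and PA2 in the F test across the 4 subpopulations (adjusted p = 4.63e-05), and so did that on Hand2 (adjusted p = 0.000417). For both genes the difference was called in FNP and in no other subpopulation.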

How the results depend on the processing

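Of 781 alternative values for 58 results on Hand1 and Hand2, 741 kept their direction and their side of the threshold, and 43 results kept both throughout. The cause was not tested for the others, which follow as log2 fold changes. Hand2 in Md against PA2 at E10.5 was 0.71 with RLE scaling, 0.68 with upper-quartile scaling and 0.71 with DESeq2, and 0.66 to 0.82 with 1 library left out. Hand2 in Mx against FNP was 4.06 to 6.65 with 1 library left out. The change of Hand1 in Mx from E10.5 to E11.5 passed the threshold without a filter (-2.26) and with DESeq2 (-2.32), and that of Hand2 with DESeq2 (-1.75); with 1 library left out Hand2 was -2.44 to 0.15. The difference in stage change between Md and PA2 passed for Hand2 with only the groups compared (0.75). In Ezh2cKO Mx, Hand2 passed with upper-quartile scaling (1.77), library totals (1.72), no filter (1.74) and DESeq2 (1.76), with 1.00 to 3.59 on leaving out a library, and Hand1 was -0.087 to 1.51. In Ezh2cKO PA2, Hand1 was -0.46 to 0.54, and the difference between Md and PA2 in the Ezh2cKO effect was -0.69 to 0.31 for Hand1 and -0.20 to 0.096 for Hand2. Hand2 in Md against PA2 of Ezh2cKO passed without a filter (0.62) and with only the groups compared (0.62). In HoxA2OE Md, library totals gave 0.19 for Hand1 and -0.079 for Hand2, only the groups compared gave 0.62 for Hand2, and leaving out a library gave 0.14 to 0.94. In Control against wild-type PA2, Hand2 was 0.65 to 0.93, and in Hoxa2TempMut against wild-type PA2, Hand1 was 1.53 to 2.36.

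Of 388 counts of called genes, 22 moved by over 1.5 times. With only the groups compared, 1746 in place of 960 genes were called in Md against PA2 at E10.5, 2883 in place of 1802 in PA2 against Mx, 3026 in place of 1885 in Ezh2cKO PA2, 546 in place of 335 in the F test (522 with DESeq2), 85 in place of 52 in its Md and PA2 contrast, 6400 in place of 11277 in HoxA2OE Md, 6550 in place of 11529 in HoxA2OE Md against PA2, and 247 in place of 128 in Hoxa2TempMut. Leaving out 1 library did so for Md, PA2 and FNP against Mx at E10.5, for Mx against FNP at E11.5, for Ezh2cKO Mx, Md and PA2 and for Hoxa2TempMut. Library totals made 11.04% of the calls in HoxA2OE Md higher against 49.4%, 69.4% of those in PA2 over time against 54.2%, 26.4% of those in Control PA2 against 45.8%, and 20.6% of those in Hoxa2TempMut against wild-type PA2 against 48.0%. The fit with a replicate block changed no call of Hand1 or Hand2 (Hand2 in Md against PA2 0.72, Hand1 in Ezh2cKO FNP 4.74) and gave 967 genes called in Md against PA2 and 1426 in Ezh2cKO FNP, against 960 and 1398. Of 2535 alternative values for other named genes, 2433 kept direction and side. AC119275.1 in Mx from E10.5 to E11.5 was -2.76 to 2.59 with 1 library left out, reversed without Mx replicate 1 of E10.5, and with library totals Tcf4 and Galnt7 in HoxA2OE Md turned to -0.084 and -0.14. Depth limits Hand1 and Hand2 in FNP, Mx and at E8.5, where groups hold 0 to 217 counts. It also limits Hand1 in PA2 at E11.5, with 15 counts in wild type, 33 in Control and 61 in Hoxa2TempMut.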
